A study of Xenopus tropicalis with 11 samples.

Results

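The binding landscapes of Otx2 and Lim1 were compared as 2 lists of ChIP-seq peaks. The embryos were early gastrulae (stage 10.5) of Xenopus tropicalis, strain Nigerian A, taken whole. All intervals lying on sequences named as chromosomes were taken, with no choice by strength. This gave 166593 Otx2 peaks and 81843 Lim1 peaks, 248436 of the 719541 distinct chromosomal intervals in the 7 peak lists of the series. Each list comes from 1 immunoprecipitated library, the chromatin of 2000 to 3000 fixed embryos was used per sample, and both factors were set against the same input library. The other libraries, made at the same stage in the same strain, map Gsc, TLE, p300, H3K27ac and H3K4me1. No embryo is labelled as treated or mutated. With 1 library per antibody there is no replicate error and no test, so shares carry exact (Clopper-Pearson) 95% intervals that cover counting error only, and the 10 chromosomes serve to show how even a value is along the genome.

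Otx2 is a homeodomain transcription factor of the orthodenticle family and Lim1, also called Lhx1, is a LIM-homeodomain factor that works with the cofactor Ldb1. Both are made in the Spemann-Mangold organizer, the dorsal signalling centre of the gastrula, and mouse embryos that lack either gene form no proper head. Gsc is an organizer homeodomain repressor, TLE (Groucho) a corepressor, and p300 an acetyltransferase and coactivator. H3K4me1 lies at enhancers, and H3K27ac at active enhancers and promoters. Since the embryos were taken whole, an Otx2 and a Lim1 peak that overlap may stem from different cells. More cells with a factor bound and more binding per cell cannot be told apart.

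Otx2 peaks were more numerous and wider than Lim1 peaks. The Otx2 list was 2.04 times as long, with 131 peaks per Mb against 64.3 per Mb for Lim1 over 1272.5 Mb of chromosomes, measured to the last peak on each. Median width was 141 bp for Otx2 (quartiles 85 and 236 bp) and 90 bp for Lim1 (47 and 156 bp). Each list had a smallest width at which many peaks stood, 66 bp for Otx2 (13.0% of peaks) and 46 bp for Lim1 (24.2%). Otx2 peaks covered 2.41% of the chromosomes and Lim1 peaks 0.799%. The median fold enrichment, the authors' ratio of a peak to its background, was 3.64 in the Otx2 list and 3.47 in the Lim1 list. The Otx2 list reached further into strong peaks, with 35008 (21.0%) at a −log10 q of 5 or more, against 2013 (2.46%) in the Lim1 list. Read depth is unknown from peak lists, so a deeper library, a stronger antibody and more bound sites cannot be told apart as sources of the longer list.

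Most Otx2 peaks had no Lim1 peak on them, and about 1 Lim1 peak in 3 lay on an Otx2 peak. Among Otx2 peaks, 27068 of 166593 shared at least 1 bp with a Lim1 peak, which is 16.2% (interval 16.1 to 16.4%). Among Lim1 peaks, 27845 of 81843 shared at least 1 bp with an Otx2 peak, which is 34% (33.7 to 34.3%). Partners were almost always single. A shared Otx2 peak met exactly 1 Lim1 peak in 96.0% of cases, and a shared Lim1 peak met exactly 1 Otx2 peak in 98.8%. The bases covered by both lists were 11.9% of the Otx2 territory and 35.9% of the Lim1 territory, or 0.287% of the chromosomes.

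Where the peaks met, the Lim1 peak usually sat inside the Otx2 peak. Of the 28209 overlapping pairs, 15946 (56.5%) had the Lim1 peak within the Otx2 peak and 2123 (7.53%) had the Otx2 peak within the Lim1 peak. A further 10137 pairs (35.9%) overlapped in part and 3 had identical ends. The Otx2 peak was the wider one in 79.4% of pairs. The midpoints lay within 50 bp of each other in 49.3% of pairs and within 250 bp in 95.4%.

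The overlap shares depended on the strength asked for. With both lists limited to a −log10 q of at least 5, 3.25% of Otx2 peaks met a Lim1 peak and 57.0% of Lim1 peaks met an Otx2 peak. When the stricter limit was put on the list described and the other list was kept whole, a choice made after seeing the data, the shares were 32.8% of Otx2 and 88.1% of Lim1 peaks. Strong Lim1 peaks thus had a partner more often under both limits, and strong Otx2 peaks when the Lim1 list was kept whole. With both lists limited, 2013 Lim1 peaks were left for 35008 Otx2 peaks. Few Otx2 peaks could then have a partner, whatever their strength, so the low share is no property of strong Otx2 peaks. With the Otx2 list cut to the length of the Lim1 list, keeping the peaks of highest fold, 21.6% of Otx2 and 22.6% of Lim1 peaks had a partner. Since partners were almost always single, lists of equal length give close shares by counting alone.

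Lim1 peaks lay closer to Otx2 peaks than Otx2 peaks did to Lim1 peaks. From an Otx2 midpoint to the nearest Lim1 peak the median distance was 3788 bp, with quartiles at 734.5 and 9584.5 bp. From a Lim1 midpoint to the nearest Otx2 peak it was 830 bp, with quartiles at 0 and 3303 bp. A distance of 0 means that the midpoint lies inside the other peak, which was so for 9.96% of Otx2 and 29.3% of Lim1 midpoints. With the Otx2 list cut to the length of the Lim1 list the medians were 3452.5 bp from Otx2 and 3117 bp from Lim1, which lie close together. With both lists limited to a −log10 q of at least 5 they were 234235 bp from Otx2 and 0 bp from Lim1. The limited lists held 35008 Otx2 and 2013 Lim1 peaks, so the lists were then further apart in length.

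The 2 directions had different shapes. Within 1 kb lay 27.9% of Otx2 midpoints and 52.4% of Lim1 midpoints, and the fullest class past 1 kb was 5 to 10 kb for Otx2 (19.4%) and 1 to 2.5 kb for Lim1 (16.7%). Among peaks without a partner, the median distance was 5260 bp for Otx2 and 2270.75 bp for Lim1. Isolation was rarer on the Lim1 side, which faced the longer list. The classes and shares given here were not computed at equal list lengths. Within 10 kb of the other list lay 76.1% of Otx2 midpoints and 94.3% of Lim1 midpoints, and the farthest were 154897 bp and 75378 bp away.

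**Figure D1:**
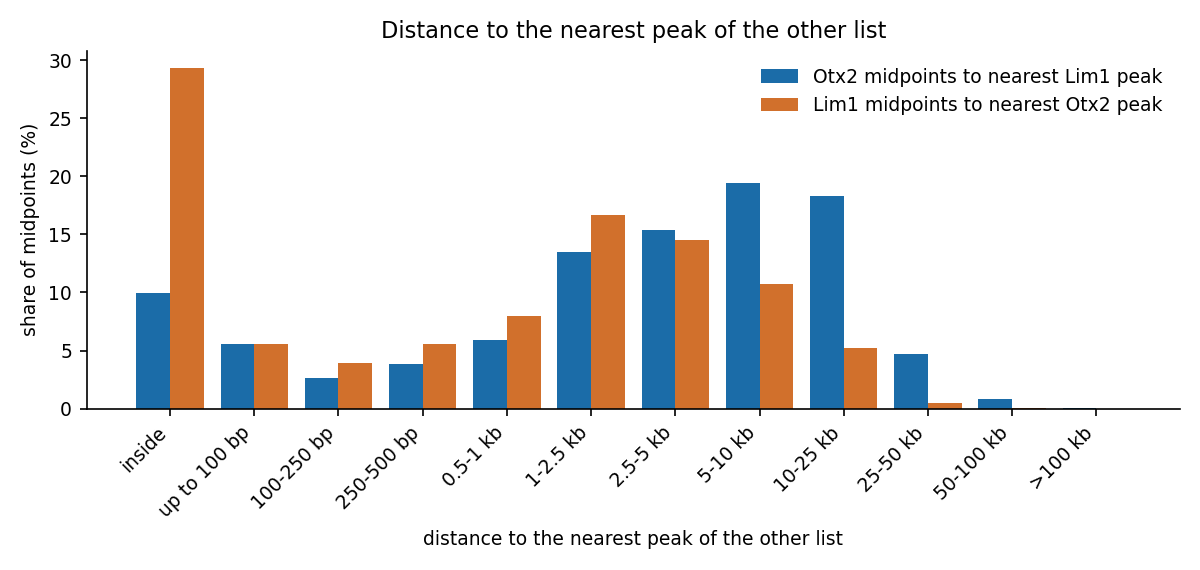
Distance from each midpoint to the nearest peak of the other list, for Otx2 midpoints (blue, left of each pair of bars) and Lim1 midpoints (orange, right), as the share of the list in percent by class of distance; classes differ in length. The class inside a peak holds 9.96% of Otx2 and 29.3% of Lim1 midpoints, and past 2.5 kb the Otx2 bars are the taller ones.

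Pairs of peaks were also counted at every distance and divided by the number that the mean density of each chromosome gives, so that 1 is the chromosome mean. Otx2 to Lim1 pairs stood at 5.44 times the mean at up to 250 bp (5.24 to 5.61 over the chromosomes). They stood at 1.83 at 250 to 500 bp, 1.58 at 500 to 1000 bp and 1.09 at 2.5 to 5 kb. The excess of Lim1 around Otx2 was therefore steepest within 250 bp, with a smaller rise over the next 2.5 kb.

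Peaks of the same list also gathered at short range. At 250 to 500 bp, Otx2 pairs stood at 1.68 times the mean and Lim1 pairs at 3.31 times. Under 250 bp same-list pairs were scarce, at 0.0523 for Otx2 and 0.275 for Lim1. The smallest gap between intervals of 1 list was 145 bp in both lists, which bounds how close 2 peaks of a list can stand. At long range all 3 curves came down slowly and stood between 1.01 and 1.02 at 1 to 2 Mb.

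The curves did not decline evenly. The density of Otx2 pairs was 1.01 at 4 to 5 kb and 1.25 at 5 to 6 kb. The density of Lim1 pairs was 1.08 at 4 to 5 kb and 1.32 at 5 to 6 kb. For Otx2 to Lim1 pairs the values were 1.08 at 4 to 5 kb and 1.21 at 5 to 6 kb. All 3 rose past 5 kb on 10 of 10 chromosomes. The same rise was present within each of the other 5 lists, by a factor of 1.52 in H3K27ac, 1.36 in H3K4me1, 1.36 in Gsc, 1.21 in p300 and 1.16 in TLE, on 10 of 10 chromosomes except Gsc with 9 of 10. It was thus present in all 7 lists, whichever the antibody. Its cause was not tested.

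**Figure D2:**
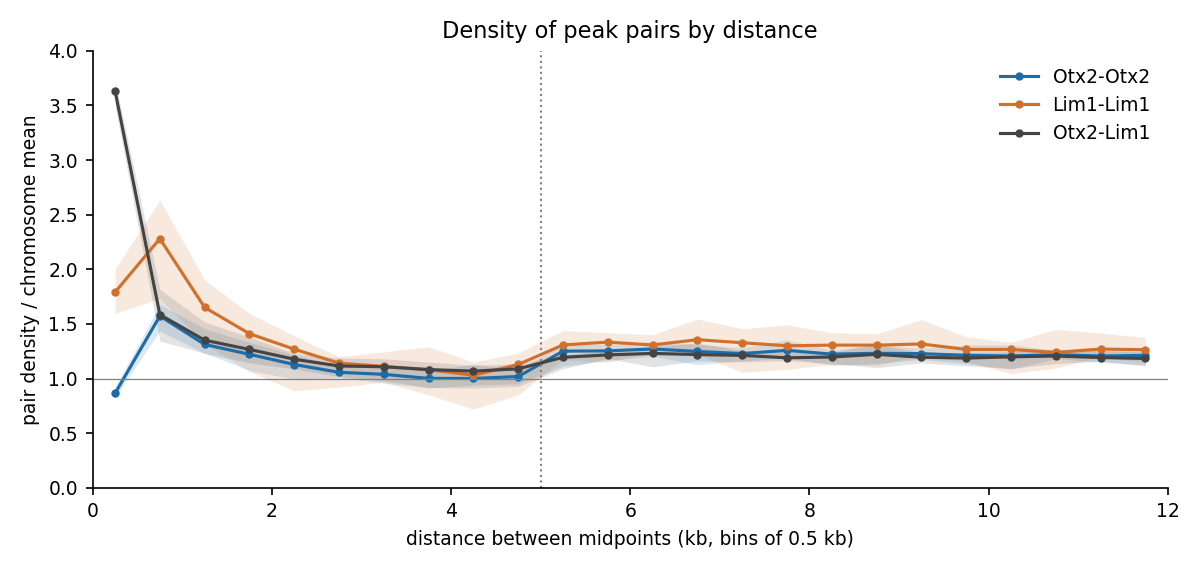
Density of peak pairs over the chromosome mean (vertical axis, 1 is the mean) against the distance between midpoints in kb, in bins of 0.5 kb, for Otx2 pairs, Lim1 pairs and Otx2 to Lim1 pairs; bands span the lowest and highest chromosome. The Otx2 to Lim1 curve is highest next to 0, and all 3 curves step up at 5 kb, marked by the dotted line.

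In each list the median gap between neighbouring peaks lay below the mean gap. The median gap between neighbouring midpoints was 4892 bp in the Otx2 list and 8968 bp in the Lim1 list, 0.640 and 0.577 of the mean gap. Gaps under 1 kb made up 15.1% of Otx2 and 12.1% of Lim1 gaps. They made up 4.25% of Otx2 and 3.10% of Lim1 gaps at a −log10 q of at least 5, and 7.31% of Otx2 gaps when the Otx2 list was cut to the length of the Lim1 list. When intervals at most 1 kb apart were joined, 31.8% of Otx2 peaks and 23.4% of Lim1 peaks stood in chains of more than 1 peak. Chains of 5 or more peaks held 1574 Otx2 peaks and 819 Lim1 peaks. No value for randomly placed peaks was computed, so a median gap below the mean gap is not read here as clustering. The Otx2 list is also the longer one. The cut kept the Otx2 peaks of highest fold, and the median fold was 3.21 in Otx2 chains of 5 or more against 3.66 in lone Otx2 peaks. The gap and chain shares, of the whole lists or after the cut, thus do not rank the lists by clustering.

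Chains were shared more often than lone peaks. Otx2 peaks met a Lim1 peak in 13.6% of lone peaks, 19.5% of peaks in chains of 2, 26.1% in chains of 3 to 4 and 41.0% in chains of 5 or more. Lim1 peaks met an Otx2 peak in 30.6%, 42.7%, 49.5% and 64.5% of the same classes. Peaks in the longest chains were also wider, with medians of 157 bp in chains of 5 or more against 138 bp alone for Otx2 and 160 against 84 bp for Lim1. The part of width in this was not tested. Joining both lists together at 1 kb gave 34796 chains with both factors (20.3%), 101267 with Otx2 only (59.1%) and 35177 with Lim1 only (20.5%). The mixed chains held 30.3% of Otx2 peaks and 54.0% of Lim1 peaks.

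The longest chain of Otx2 peaks ran over chr6:115846468-115866167, 19700 bp with 18 Otx2 peaks and 9 Lim1 peaks. Of its Otx2 peaks, 9 met a Lim1 peak, their median width was 333.5 bp and their fold enrichments were 2.05 to 3.66. The stretch also held 17 p300, 15 TLE, 17 H3K4me1 and 12 H3K27ac peaks, but 2 Gsc peaks. The longest chain of Lim1 peaks, at chr10:20064155-20073452, spanned 9298 bp and held 11 Otx2 peaks and 12 Lim1 peaks. Its Lim1 folds were low, 1.65 to 2.54, and it held 21 Gsc, 13 p300 and 12 TLE peaks. Both stretches were thus occupied in all 7 libraries.

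On the scale of 100 kb, the 2 landscapes rose and fell together. Over 12721 windows the median was 12 Otx2 peaks and 6 Lim1 peaks, and the variance was 3.15 times the mean for Otx2 and 2.53 times for Lim1. Spearman's rho between the counts of both lists was 0.61 over the 12721 windows of 100 kb and 0.78 over 1268 windows of 1 Mb. The windows share an input library and the state of the assembly, so rho is given as a description. Lim1 peaks outnumbered Otx2 peaks in 727 windows (5.71%), 244 windows held Otx2 peaks and no Lim1 peak, and 8 held Lim1 peaks and no Otx2 peak.

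Overlap was more frequent in windows with more peaks of the other list. The count includes the peaks that are met, so a rise is partly given by the counting. No share to be had from density alone was computed. Otx2 peaks met a Lim1 peak in 6.69% of cases where the window held 0 to 4 Lim1 peaks, 14.8% with 5 to 9, 25.6% with 10 to 19 and 49.7% with 20 or more. Lim1 peaks met an Otx2 peak in 10.9%, 20.3%, 32.6% and 48.9% of cases at the same numbers of Otx2 peaks. The window richest in Otx2, chr3:125000001-125100000, held 73 Otx2 peaks and 25 Lim1 peaks, of which 22 in each list were shared. The window richest in Lim1, chr4:36900001-37000000, held 44 Otx2 and 50 Lim1 peaks, of which 28 and 27 were shared.

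Some windows held 1 factor alone. The window with most Otx2 peaks and no Lim1 peak, chr1:62000001-62100000, held 22 Otx2 peaks at a median fold of 3.56, with 21 TLE and 14 p300 peaks and no Gsc peak. The window with most Lim1 peaks and no Otx2 peak, chr1:60600001-60700000, held 4 Lim1 peaks at a median fold of 3.87, with 4 TLE peaks and no p300 peak.

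Chromosome 10 had more peaks of both factors than its length gives, 3.73% of Otx2 and 4.29% of Lim1 peaks on 3.14% of the covered length. Otx2 density was lowest on chromosome 7 (122 peaks per Mb) and highest on chromosome 10 (156 per Mb). Lim1 had its lowest and highest density on the same chromosomes, 58.9 and 87.8 peaks per Mb. The number of Otx2 peaks per Lim1 peak was 1.77 on chromosome 10 and 1.84 on chromosome 9, and between 2.03 and 2.11 on the other 8. Chromosomes 9 and 10, the shortest, thus had more Lim1 for their Otx2 than the rest.

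Chromosome 10 stood apart in overlap as well. There 21.9% of Otx2 peaks met a Lim1 peak (20.8 to 22.9%) and 39.8% of Lim1 peaks met an Otx2 peak (38.2 to 41.4%). On chromosome 7, the lowest, the shares were 15.3% (14.7 to 15.9%) and 32.4% (31.3 to 33.5%). Median distance to the other list was shortest on chromosome 10, 2411.5 bp from Otx2 and 472 bp from Lim1. On chromosome 7 it was 4090 bp from Otx2 and 986.75 bp from Lim1. The chromosomes differ in length, and chromosome 10 has no stretch more than 20 Mb from an end.

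Both lists, and their overlap, were richer near the chromosome ends. An end is here the first base or the last peak of a chromosome in the unnamed build of the lists. The gene table of another assembly reaches 10.6 to 29.6 Mb further, so these ends may not be the true ends. Otx2 density was 171 peaks per Mb in the outermost 1 Mb and 129 per Mb more than 20 Mb from an end. Lim1 density was 113.5 per Mb in the outermost 1 Mb and 59.0 per Mb in the interior, a steeper gradient. Of Otx2 peaks, 30.8% (29.3 to 32.4%) met a Lim1 peak in the outermost 1 Mb, against 14.3% (14.1 to 14.5%) in the interior. Of Lim1 peaks, 47.7% (45.6 to 49.7%) met an Otx2 peak in the outermost 1 Mb, against 32.3% (31.9 to 32.7%) in the interior.

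The gradient was found on most chromosomes. Of the 9 chromosomes with an interior, the outer 5 Mb were denser than the interior on 7 for Otx2 and 9 for Lim1, and more often shared on 9 of 9 for both. Over the 20 single ends of 5 Mb, Otx2 density ran from 97 to 191 per Mb (median 152) and Lim1 density from 60.2 to 121 per Mb (median 95.7). The share of Otx2 peaks meeting Lim1 ran from 18.0 to 33.6% over these ends, and that of Lim1 peaks meeting Otx2 from 33.2 to 54.5%. All 20 ends lay above the interior share in both lists.

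At a like local density of the other list, the outer and inner shares still differed. In windows with 10 to 19 Lim1 peaks, 30.8% of Otx2 peaks in the outer 5 Mb met a Lim1 peak, against 23.9% in the interior. In windows with 10 to 19 Otx2 peaks, 39.6% of Lim1 peaks in the outer 5 Mb met an Otx2 peak, against 30.9% in the interior. The order was the other way round for Otx2 peaks in windows with 20 or more Lim1 peaks, with 42.5% of 614 peaks in the outer 5 Mb against 54.7% of 1245 in the interior.

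The other libraries had gradients of their own along the same axis, except for p300 on Otx2 peaks. On Otx2 peaks p300 stood at 52.7% in the outermost 1 Mb and 51.3% in the interior, and on Lim1 peaks at 44.3% and 31.4%. Gsc lay on 11.9% of Otx2 and 15.9% of Lim1 peaks in the outermost 1 Mb, against 6.13% and 6.03% in the interior. H3K4me1 lay on 38.8% of Otx2 and 42.2% of Lim1 peaks in the outermost 1 Mb, against 26.0% and 19.7% in the interior. H3K27ac peaks lay on 32.5% of Otx2 and 44.8% of Lim1 peaks in the outermost 1 Mb, against 13.7% of Otx2 and 16.9% of Lim1 peaks in the interior. TLE ran the opposite way, on 36.8% of Otx2 peaks in the outermost 1 Mb against 52.0% in the interior. On Lim1 peaks TLE stood at 20.9% in the outermost 1 Mb and 24.7% in the interior. Otx2 peaks were also wider in the outermost 1 Mb, with a median of 161 bp against 140 bp in the interior, and Lim1 peaks likewise, with 130 bp against 82 bp. The part of these in the gradient of overlap was not tested.

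**Figure D3:**
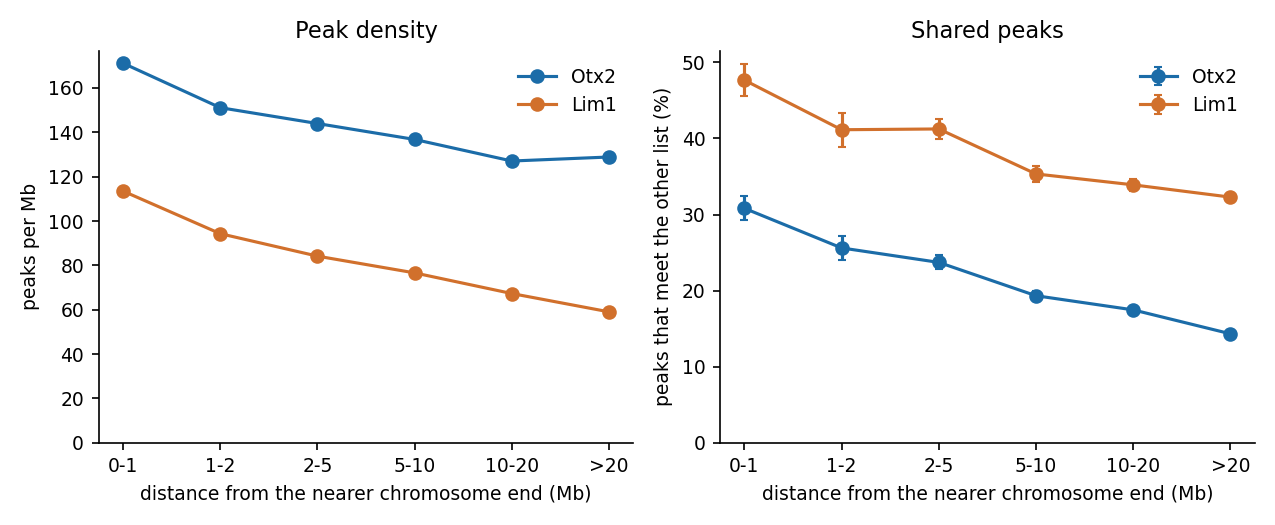
Peaks per Mb (left) and the share of peaks that meet the other list in percent with exact 95% intervals (right), against distance from the nearer chromosome end in Mb, for Otx2 (blue) and Lim1 (orange). Lim1 density is 113.5 per Mb in the outermost 1 Mb and 59.0 per Mb past 20 Mb, and both shares come down from the end to the interior.

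Shared peaks were wider than unshared peaks in both lists. Otx2 peaks with a Lim1 peak had a median width of 247 bp (quartiles 143 and 390 bp), and those without had 129 bp (81 and 209 bp), a ratio of 1.91. Lim1 peaks with an Otx2 peak had a median width of 122 bp (64 and 202 bp), and those without had 75 bp (46 and 138 bp), a ratio of 1.63. The shared peaks were the wider ones on 10 of 10 chromosomes in each list. A wider interval also has more room to meet another peak, a part that was not tested. With both lists limited to a −log10 q of at least 5 the ratio was 1.02 for Otx2 and 1.92 for Lim1. Of the limited Otx2 peaks, 11475 met the whole Lim1 list and 1139 the limited one. The unshared class then also holds Otx2 peaks on a weaker Lim1 peak, so the 1.02 does not set peaks with Lim1 against peaks without. With the limit on the list described alone, the ratio was 1.48 for Otx2 and 2.38 for Lim1.

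The share met rose with width, more evenly for Otx2 than for Lim1. It was 7.20% among Otx2 peaks from 50 to under 100 bp, 20.2% from 200 to under 300 bp, 62.6% from 500 to under 1000 bp and 84.3% of the 300 peaks of 1000 bp or more. Among Lim1 peaks it was 18.5% under 50 bp and then flat, at 33.9%, 33.7% and 36.4% in the 3 classes of 50 bp each from 50 to under 200 bp. It was 55.4% from 200 to under 300 bp, 83.8% from 500 to under 1000 bp and 99.1% (114 of 115) at 1000 bp or more. Peaks at the smallest width of their list were met least, 5.97% in the Otx2 list and 17.0% in the Lim1 list.

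**Figure D4:**
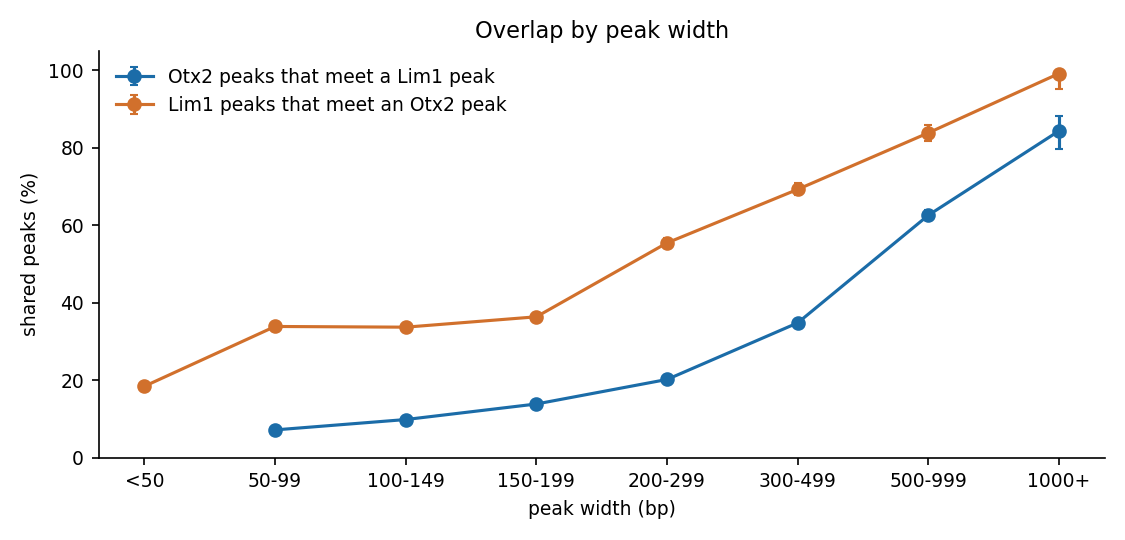
Share of peaks that meet the other list (percent, with exact 95% intervals) by peak width in bp, for Otx2 (blue) and Lim1 (orange). Otx2 rises in every class, and Lim1 is flat between 50 and 200 bp at 33.7 to 36.4% before it rises.

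Shared peaks had higher fold enrichment too. The median fold was 4.25 in Otx2 peaks with a Lim1 peak and 3.57 in those without, and 3.64 in Lim1 peaks with an Otx2 peak and 3.40 in those without, in the same direction on 10 of 10 chromosomes in each list. In the decile of highest fold 34.3% of Otx2 peaks and 64.1% of Lim1 peaks had a partner, against 11.6% and 24.5% in the decile of lowest fold. Over the 27068 shared Otx2 peaks, Spearman's rho with the highest Lim1 fold was 0.22, and that of the widths was 0.23, given as a description since both lists share an input.

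The strongest joint regions were narrow and nearly concentric. The 5 overlaps ranked highest in both lists by fold had Otx2 peaks of 126 to 198 bp, each with a Lim1 peak whose midpoint lay 0.5 to 8.5 bp away. At chr7:89101856-89102024 the Otx2 fold was 19.2, the highest on the chromosomes, and the Lim1 fold 16.6, with peaks of the other 5 libraries on it, TLE at 40.6, p300 at 34.4 and Gsc at 27.2. At chr9:80295847-80296025, 15.4 for Otx2 and 16.6 for Lim1 met a Gsc fold of 32.1 and an H3K27ac fold of 11.5. At chr2:8193548-8193673, 18.0 for Otx2 and 17.3 for Lim1 lay with peaks of the other 5 libraries as well.

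The remaining 2 of the 5 met fewer of the other libraries. At chr1:29514008-29514142, 18.4 for Otx2 and 17.4 for Lim1 met Gsc (6.35) and H3K27ac (3.51) but no TLE, p300 or H3K4me1 peak. At chr5:98938035-98938232, 18.8 for Otx2 and 16.4 for Lim1 met a Gsc peak (5.29) and no other. High folds of both homeodomain factors thus occurred with and without the coregulators.

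The overlaps with most shared bases were chosen for length rather than fold. They spanned 3290 bp at chr4:72497504-72500846, 2203 bp at chr4:49135753-49137968 and 2183 bp at chr8:97911431-97913634. Their folds were 2.71, 3.83 and 4.20 for Otx2 and 2.93, 3.97 and 4.38 for Lim1. All 3 met peaks of the other 5 libraries, though a longer interval also has more room to meet a peak. Since the 5 narrow overlaps were chosen for their folds and these 3 for their shared bases, neither the folds nor the widths of both sets are compared.

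The strongest peaks with no peak of the other factor within 10 kb differed between the lists in TLE and p300, and lacked H3K4me1 in both. The 3 such Otx2 peaks of highest fold were chr1:82701930-82702175 (14.9), chr7:54287112-54287273 (14.8) and chr4:52007986-52008162 (13.7), and all 3 met a TLE peak and a p300 peak. None of these 3 Otx2 peaks met H3K27ac or H3K4me1. The first met Gsc at a fold of 5.64 and the second at 5.24. The 3 such Lim1 peaks of highest fold were chr1:160491400-160491477 (7.51), chr3:18305416-18305498 (7.36) and chr3:23985483-23985550 (7.31). None of these 3 Lim1 peaks met Gsc, TLE, p300 or H3K4me1, and 1 met H3K27ac at a fold of 2.48. The lone Otx2 peaks were 162 to 246 bp wide and the lone Lim1 peaks 68 to 83 bp. Their −log10 q was 28.4 to 35.1 for Otx2 and 7.91 to 8.27 for Lim1, so the sets also differ in strength.

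Over the whole lists, p300, TLE and H3K4me1 were met more often by Otx2 peaks, and Gsc and H3K27ac more often by Lim1 peaks. Of all Otx2 peaks, 50.9% met p300, 49.3% TLE, 27% H3K4me1, 15.9% H3K27ac and 6.8% Gsc. Of all Lim1 peaks, 33.3% met p300, 23.6% TLE, 22.9% H3K4me1, 21.8% H3K27ac and 7.78% Gsc. The lists differ in peak width and strength, and these shares were not matched for either. The order of the lists thus holds for the whole lists only and does not rank the factors. Peaks met by none of the 5 made up 10.8% of shared and 33.3% of unshared Otx2 peaks. They made up 11.4% of shared and 75.4% of unshared Lim1 peaks. A Lim1 peak away from Otx2 was thus mostly a peak in 1 library alone. That held for fewer of the unshared Otx2 peaks. The unshared Lim1 peaks were also mostly weak calls. Their median −log10 q was 1.55, against 1.86 in shared Lim1 peaks and 2.40 in unshared Otx2 peaks. A −log10 q of 5 or more was reached by 0.444% of unshared Lim1 peaks, 6.37% of shared Lim1 peaks and 16.9% of unshared Otx2 peaks. Of unshared Lim1 peaks, 30.5% stood at the smallest width, against 12.1% of shared ones. The part of peak strength in the shares met by none was not tested.

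Over the whole lists, TLE and p300 showed the widest differences between shared and unshared Lim1 peaks. TLE lay on 63.0% of Lim1 peaks with an Otx2 peak (62.5 to 63.6%) and on 3.21% of those without (3.06 to 3.36%). p300 lay on 77.9% of Lim1 peaks with an Otx2 peak and 10.3% of those without. When unshared Lim1 peaks were weighted to the widths of the shared ones, over 10 classes of width, TLE was at 3.57% and p300 at 15.6% of unshared peaks. The differences at matched widths were thus close to the unmatched ones, and the part of peak strength was not tested. Of the 2013 Lim1 peaks at a −log10 q of at least 5, 1773 met the whole Otx2 list and 1148 the limited one. With both lists limited, the unshared class thus also holds Lim1 peaks that lie on a weaker Otx2 peak. With both lists limited to a −log10 q of at least 5, TLE lay on 70.3% of shared and 34.2% of unshared Lim1 peaks, p300 on 78.7% and 58.6%, and Gsc on 63.1% and 30.9%, so that the p300 difference was then smaller than that of Gsc. With the limit on Lim1 alone, TLE lay on 61.0% of shared and 8.75% of unshared Lim1 peaks, p300 on 75.3% and 31.2%, and Gsc on 54.8% and 8.33%.

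Among Otx2 peaks the coregulator differences were smaller, and that of TLE was nearly absent at matched widths. TLE lay on 64.8% of Otx2 peaks with a Lim1 peak and 46.3% of those without. Weighted to the widths of the shared peaks, the unshared share was 64.0%, and TLE was more frequent in shared peaks in 4 of 10 width classes. p300 lay on 79.1% of Otx2 peaks with a Lim1 peak and 45.4% of those without, or 61.7% at matched widths. Of the 35008 Otx2 peaks at a −log10 q of at least 5, 11475 met the whole Lim1 list and 1139 the limited one. With both lists limited, the unshared class thus also holds many Otx2 peaks that lie on a weaker Lim1 peak. With both lists limited to a −log10 q of at least 5, the order for both coregulators turned round between these mixed classes. Then TLE lay on 71.0% of the 1139 shared Otx2 peaks and 86.9% of the unshared, and p300 on 79.3% and 84.5%. With the whole Lim1 list and only Otx2 limited, the shares were 92.6% of shared and 83.3% of unshared Otx2 peaks for TLE, and 95.5% and 78.9% for p300.

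Gsc and the histone marks were more frequent at shared peaks of both lists, at matched widths too. Gsc lay on 22.2% of Otx2 peaks with a Lim1 peak and 3.82% of those without (8.16% at matched widths), and on 20.3% of Lim1 peaks with an Otx2 peak and 1.32% of those without (2.52%). H3K27ac lay on 45.8% of shared and 10.1% of unshared Otx2 peaks (17.5%), and on 38.6% of shared and 13.2% of unshared Lim1 peaks (20.5%). H3K4me1 lay on 56.7% of shared and 21.2% of unshared Otx2 peaks (31.5%), and on 46.7% of shared and 10.6% of unshared Lim1 peaks (15.5%). With both lists limited to a −log10 q of at least 5, Gsc lay on 63.3% of shared and 19.96% of unshared Otx2 peaks. Under that limit H3K27ac lay on 61.9% of shared and 24.6% of unshared Otx2 peaks, and on 58.8% of shared and 44.3% of unshared Lim1 peaks. H3K4me1 lay on 68.5% of shared and 41.4% of unshared Otx2 peaks, and on 65.8% of shared and 47.3% of unshared Lim1 peaks. The unshared classes under that limit also hold peaks that lie on a weaker peak of the other factor. With the limit on Otx2 alone, Gsc lay on 32.5% of shared and 15.9% of unshared Otx2 peaks. H3K27ac then lay on 49.1% and 14.4% of these, and H3K4me1 on 67.0% and 30.3%. With the limit on Lim1 alone, H3K27ac lay on 56.6% of shared and 22.5% of unshared Lim1 peaks, and H3K4me1 on 62.0% and 26.7%. Each of the 10 differences before matching and limits, TLE and p300 included, had the same direction on 10 of 10 chromosomes. Peaks of all 5 other libraries came together on 8.56% of shared and 0.305% of unshared Otx2 peaks, and on 6.37% of shared and 0.0704% of unshared Lim1 peaks.

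**Figure D5:**
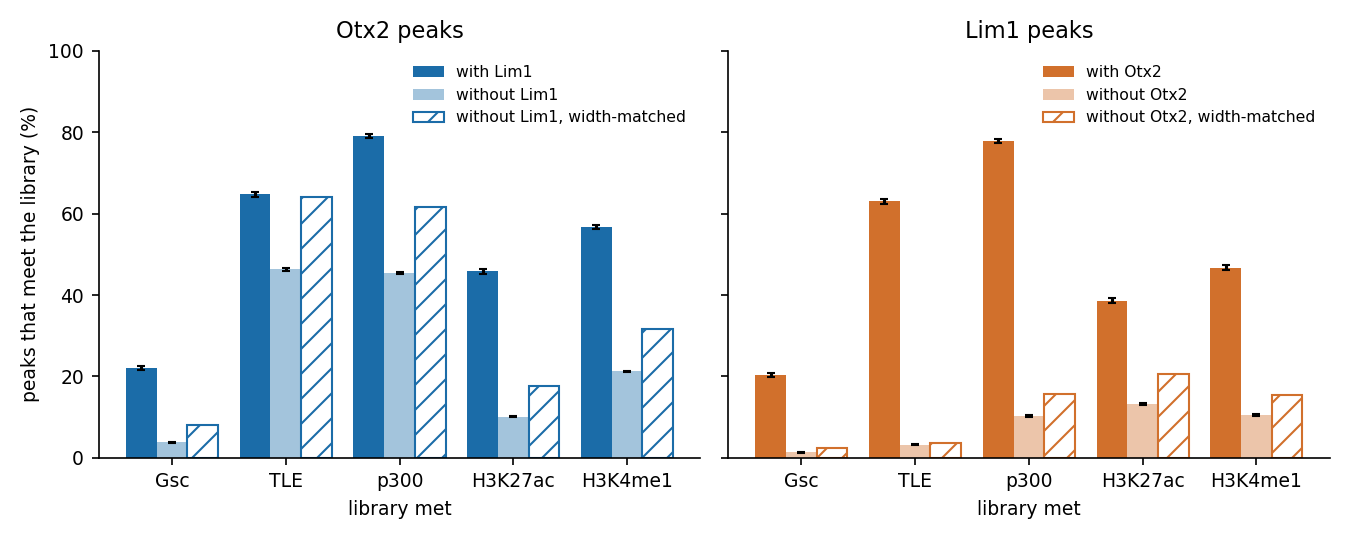
Percent of Otx2 peaks (left panel) and Lim1 peaks (right panel) that meet a peak of Gsc, TLE, p300, H3K27ac or H3K4me1, for peaks with a peak of the other factor, peaks without, and peaks without weighted to the widths of those with (hatched); bars carry exact 95% intervals where not weighted. TLE is at 63.0% of shared and 3.21% of unshared Lim1 peaks, while for Otx2 the matched bar (64.0%) nearly meets the shared one (64.8%).

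Among unshared Lim1 peaks, both histone marks, TLE and p300 were met more often close to an Otx2 peak than 5 to 10 kb away. Among Lim1 peaks without an Otx2 peak, H3K27ac lay on 29.7% when the nearest Otx2 peak was at most 100 bp away, 21.7% at 250 to 500 bp and 8.99% at 5 to 10 kb. H3K4me1 lay on 32.2%, 22.1% and 5.82% at the same distances. TLE lay on 13.6% of these Lim1 peaks at up to 100 bp, 4.56% at 250 to 500 bp and 1.39% at 5 to 10 kb. For p300 the shares at these distances were 29.1%, 15.1% and 7.31%, and for Gsc, low throughout, 1.72%, 2.45% and 1.09%. Among Otx2 peaks without a Lim1 peak, H3K27ac lay on 26.6%, 24.3% and 8.89% at these distances, whereas TLE stayed between 37.1% and 49.3% at every distance to Lim1. Of the 19280 Lim1 peaks with TLE, 17548 lay on an Otx2 peak, against 27845 of all 81843 Lim1 peaks (34.0%). These counts restate the TLE contrast between shared and unshared Lim1 peaks, and the part of peak strength in it was not tested.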

How the data were processed

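Per the submitters' processing notes, MACS2 and deepTools were used, without versions; which build, aligner and filters applied was not given in the sources used here. Each factor's peaks come from 1 library. The Otx2, Lim1 and histone lists are in broad-peak layout and the Gsc, TLE and p300 lists in narrow-peak layout. The lowest −log10 q was 1.002 in the Otx2 list and 1.005 in the Lim1 list. It was 1.304 for Gsc, 1.305 for TLE and 1.301 for p300. The authors deposited a fold enrichment, a linear ratio, and a −log10 q for each peak. Both were used to describe, rank or limit peaks within a list, and their medians and shares at a limit were also set side by side between the lists. The lists may differ in read depth, which is unknown, so such contrasts do not rank the factors. Interval coordinates are as the authors deposited them, counted here from 1.

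Lines of a narrow list that repeat an interval were counted once. The supplied gene table is of the assembly UCB_Xtro_10.0, whose last gene lies 10.6 to 29.6 Mb past the last peak on all 10 chromosomes. The lists were treated as being on another build that is not named, so no gene is assigned to a region and no sequence is shown.

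Overlap means at least 1 shared bp. Distances to the other list run from midpoints to its nearest edge. The classes of unshared peaks by distance and the lone peaks with no other peak within 10 kb instead use the gap between intervals. Pair densities use the distance between midpoints. Chromosome ends are the first base and the end of the last peak. Peaks were described in windows of 100 kb and 1 Mb and in chains joined at 1, 3 or 10 kb. The regions named are the 5 overlaps highest by the lower of both fold percentiles, the 3 with most shared bases, the 3 strongest peaks of each list with no peak of the other within 10 kb, and the windows and chains with most peaks. Where a region met several peaks of a library, the highest fold is given. The members, lists and regions were chosen with earlier results of these data known. Python 3.11.15, numpy 2.4.6, pandas 2.3.3, scipy 1.17.1 and matplotlib 3.10.9 were used, and the functions were tested on simulated intervals. Alternatives were stricter −log10 q limits, a shortened Otx2 list, unplaced scaffolds included, each chromosome left out, close peaks merged, and other definitions of overlap. Read depth is unknown, and the input library was not analysed here.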

Additional observations from a re-analysis of the deposited data

Results flagged for a closer look

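Peaks on unplaced scaffolds entered none of the main comparisons and were included only in an alternative run. Both lists met each other more often on scaffolds than on the chromosomes. On scaffolds 28400 Otx2 peaks were listed and 35.4% of them (34.8 to 35.9%) met a Lim1 peak, against 16.2% on the chromosomes. There 20584 Lim1 peaks were listed and 50.03% (49.3 to 50.7%) met an Otx2 peak, against 34.0% on the chromosomes. Scaffold peaks were wider, with a median of 163.5 bp for Otx2 and 136 bp for Lim1, and their part in this was not tested.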

How the results depend on the processing

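Values are given for Otx2 and then Lim1, in the order share met, width ratio, median distance and share of gaps under 1 kb. The width ratios stayed above 1 in every alternative run. That of Otx2 at a −log10 q of at least 5 in both lists, 1.02, had an interval of 0.930 to 1.13, which includes 1. The values were 9.31%, 42.6%, 1.85, 2.46, 15261 bp, 656 bp, 11.2% and 6.57% at a −log10 q of at least 2, and 3.25%, 57.0%, 1.02, 1.92, 234235 bp, 0 bp, 4.25% and 3.10% at 5. With unplaced scaffolds they were 19.04%, 37.2%, 1.89, 1.73, 3217 bp, 585.25 bp, 16.7% and 15.3%. Merging peaks at most 500 bp apart gave 16.9%, 34.2%, 2.36, 1.83, 4060 bp, 979.5 bp, 4.77% and 3.499%. With the Otx2 list cut to the length of the Lim1 list, the shares met were 21.6% and 22.6%. The width ratios were then 1.92 and 1.43, the distances 3452.5 and 3117 bp and the gaps under 1 kb 7.31% and 12.1%. The cut kept the Otx2 peaks of highest fold, so these gap shares do not rank the lists by clustering. Asking for 50% of the shorter peak gave 14.99%, 31.4%, 1.98 and 1.57, and midpoints within 250 bp gave 17.1%, 35.3%, 1.76 and 1.53. Leaving out 1 chromosome moved the Otx2 share met to 16.03 to 16.4% and the Otx2 distance to 3745 to 3851 bp.

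Chosen after seeing the data were peaks of at least 100 bp, with 13.1%, 39.1%, 1.65 and 1.22, and the list described alone at a −log10 q of at least 5, with 32.8%, 88.1%, 1.48 and 2.38. Without the densest 1% of windows, also chosen then, the shares met were 15.7% and 33.2% and the gaps under 1 kb 14.7% and 11.6%. The causes were not tested, save that a stricter limit leaves fewer peaks to meet. Of 30 alternatives for the other libraries, 2 turned round, both for Otx2 at a −log10 q of at least 5 in both lists. They are the shared minus unshared differences of −15.8 percentage points for TLE and −5.22 for p300. The unshared class there also holds Otx2 peaks on a weaker Lim1 peak. No paired analysis was possible because there is only 1 library per antibody. Depth, replicate error and gene context cannot be had from these lists.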
